A study of Mus musculus with 6 samples.

Results

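GABA handling genes of astrocytes were examined in RNA of mouse cortical cells sorted for mCherry and labelled as astrocytes, after 2 weeks of designer receptor activation or saline. The set holds 7 genes chosen by symbol from 24421 in the table. Slc6a11 covers uptake, Abat and Aldh5a1 breakdown, Maob a minor route of synthesis, and Gabbr1, Gabbr2 and Gabrg1 the receptors. All 7 were present and had at least 1 read in each of the 6 libraries. Both groups were CD51-Flp mice, in which a virus with a GFAP promoter and a Flp-dependent cassette put the Gq-coupled receptor hM3D, tagged as hM3D-mCherry, into Flp-expressing cells. CD51 is integrin alpha V. One group (3 libraries, CNO 1, 2 and 3) received clozapine-N-oxide (CNO), the ligand of hM3D, and the other (3 libraries, saline 3, 4 and 5) received saline, 2 times a day from postnatal day 7 to 21. Cells positive for mCherry were sorted from cortex on day 21. The receptor was therefore present in saline animals too, and no group received CNO without it. The labels do not say whether a library came from 1 animal or a pool, so the p-values reflect library-to-library spread, which may be technical.

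GABA is the main inhibitory transmitter of the cortex. Astrocytes clear it from the space around synapses through sodium-coupled transporters and degrade it in mitochondria to succinate, which enters the citric acid cycle. They also sense GABA through metabotropic GABA-B receptors, which signal through Gi/o proteins, and through ionotropic GABA-A receptors, which are chloride channels. Some astrocytes make GABA from putrescine in a route that uses monoamine oxidase B.

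The sequences before the transcription starts are shown because Gabrg1 differs widely in base composition from the transporter gene and from Gabbr1. The set of RefSeq starts used here (GRCm38.p6) held 5 of the 7, Slc6a11, Aldh5a1, Gabbr1, Gabbr2 and Gabrg1. The 250 bases before the start are printed for the transporter, for the GABA-B subunit that was higher in every CNO library and for the GABA-A subunit, 5′ to 3′ on the gene's strand. Capitals mark GGGCGG, the GC box, on either strand.
Slc6a11 (chr6:114130991-114131240, plus strand): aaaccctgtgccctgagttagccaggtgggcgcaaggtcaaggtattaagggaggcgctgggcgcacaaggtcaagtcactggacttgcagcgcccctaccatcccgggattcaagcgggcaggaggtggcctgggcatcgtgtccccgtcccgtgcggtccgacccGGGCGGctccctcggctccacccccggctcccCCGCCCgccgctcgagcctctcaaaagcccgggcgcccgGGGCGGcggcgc
Gabbr1 (chr17:37045716-37045965, plus strand): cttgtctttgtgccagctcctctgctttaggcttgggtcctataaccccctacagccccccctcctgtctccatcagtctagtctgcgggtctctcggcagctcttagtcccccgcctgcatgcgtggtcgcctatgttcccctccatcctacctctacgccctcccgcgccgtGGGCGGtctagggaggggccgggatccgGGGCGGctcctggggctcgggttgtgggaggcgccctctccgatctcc
Gabrg1 (chr5:70842618-70842867, minus strand): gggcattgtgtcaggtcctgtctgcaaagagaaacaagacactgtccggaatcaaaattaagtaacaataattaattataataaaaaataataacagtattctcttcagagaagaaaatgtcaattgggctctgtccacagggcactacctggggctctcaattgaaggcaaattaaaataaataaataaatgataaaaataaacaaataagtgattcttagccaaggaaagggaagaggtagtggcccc

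The Slc6a11 window was 71.2% G or C with 25 CpG pairs, the Gabbr1 window 66.0% with 16, and the Gabrg1 window 35.6% with 1. The window of Gabbr2, which is not printed, was 80.8% with 37, and that of Aldh5a1 57.2% with 17. Over all 32851 RefSeq windows of this length the median was 52.4% and 6 CpG pairs. Slc6a11 had 3 GC boxes and Gabbr1 and Gabbr2 had 2 each, and 32.7% of all windows held at least 1. Motifs linked to calcium and cAMP signalling were searched on both strands. The CRE, TGACGTCA, lies in 1.55% of all windows and AP-1, TGANTCA, in 6.75%, and neither matched in the 5 windows. TGACG, the core of the CRE and so part of every full CRE, matched 1 time, in Aldh5a1 at 228 to 224 bases before the start, and lies in 17.8% of all windows. TATAAA (12.4% of windows), CAGCTG (13.0%) and the NFI palindrome (0.0365%) did not match. These matches describe letters in these windows.

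Values are the authors' normalized counts, which are reads per gene divided by a size factor per library. CNO 1 held 3908076 recovered reads and the other 5 libraries 12010901 to 19224186. A single read equalled 4.23 normalized counts in CNO 1, against 0.503 to 0.970 elsewhere. Genes with a read numbered 8618, 12820 and 10883 in CNO 1, 2 and 3. Saline 3, 4 and 5 had 14311, 14491 and 14141. No molecular identifiers are named in the labels, so intervals and floors on reads cover counting error only. Normalized totals averaged 1.63 times higher in CNO than in saline, so each gene is also given in RPM (a gene's reads scaled to a common total of reads per library) where the scale matters. All 18 astrocyte markers were detected in every library and took 1.19% to 4.09% of reads in CNO and 2.36% to 3.49% in saline. Itgav, the CD51 gene, had 3709.8 to 4378 normalized counts in CNO and 3924 to 5338 in saline. The 12 oligodendrocyte markers took 11.1% to 24.5% in CNO and 5.33% to 7.87% in saline, with Mag and Aspa at 0 in CNO 1. Their share exceeded that of the astrocyte markers in every library. The microglia and macrophage list of 12 took 0.613% to 1.32% and 1.12% to 1.44%. In such bulk samples fewer cells of a type and less RNA per cell cannot be told apart. Of 13028 genes tested with limma, 2 (0.0154%) passed an adjusted p of 0.05, the myelin genes Mbp and Mobp, both higher in CNO, and 0 of the 7 GABA genes did. The same fit gave 2 of the 7, Abat and Gabbr1, an unadjusted p under 0.05, both higher in CNO, where 2.28% of all tested genes were higher, 7.25% lower and 9.53% different in either direction at that level. edgeR, DESeq2 and limma-voom called 0 of the 7 as well, with 1, 1 and 2 at an unadjusted p under 0.05. At that level limma gave 0 of the 7 with library total scaling, quantile scaling, centring on astrocyte markers or no variance trend.

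**Figure D1:**
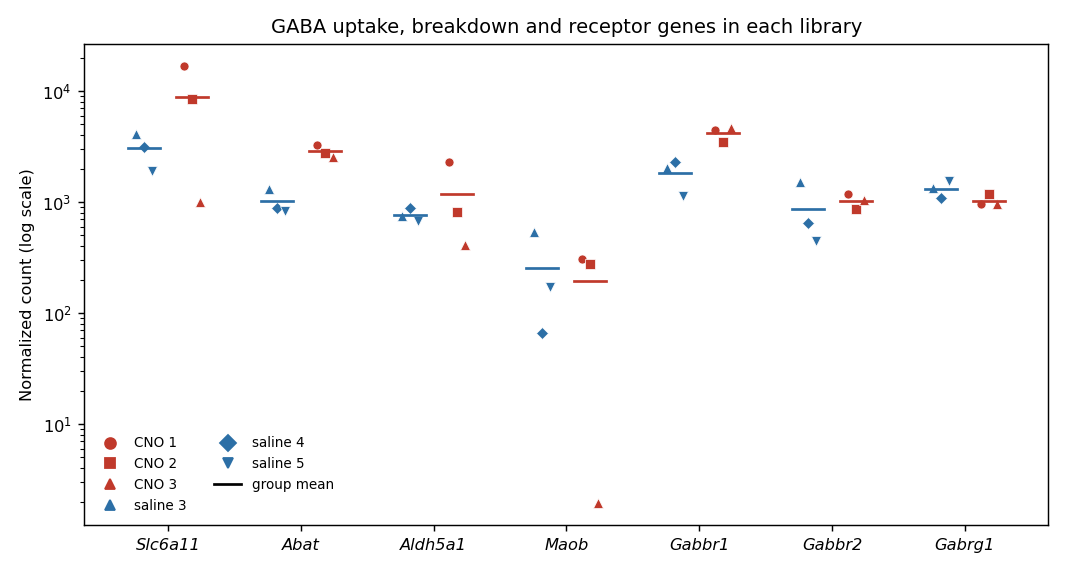
Normalized counts (log axis) of the 7 genes in each of the 6 libraries, with symbols for libraries and bars for group means. Abat and Gabbr1 separate the groups, while the 3 CNO libraries of Slc6a11 reach from 992 to 16823 and Maob in CNO 3 stands at 1.94.

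Slc6a11 had the highest mean level per kb of the transporter genes listed, and its level differed widely among the CNO libraries. Slc6a11 encodes GAT3, the GABA transporter most typical of astrocytes, and lies on chromosome 6 at 114131241 to 114249952 on the plus strand (GENCODE M21, GRCm38, the assembly called mm10). Its normalized counts were 16823, 8421 and 992 in CNO 1, 2 and 3 and 4131, 3148 and 1886 in saline 3, 4 and 5. CNO 1 and CNO 2 lay above every saline library and CNO 3 below every one, so the groups overlapped.

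The means were 8746 ± 7921 in CNO and 3055 ± 1125 in saline (SD, n = 3 each), a ratio of 2.86. On the log2 scale the difference was 0.84 ± 0.85 (SE, limma adjusted p = 0.717, 95% interval -1.02 to 2.70). In RPM the ratio of means was 1.77 and the log2 difference 0.14, and the latter was 0.20 with quantile scaling and 1.52 in DESeq2, with no adjusted p under 0.05. It depended on single libraries, at -0.01 without CNO 1 and 2.03 without CNO 3. The astrocyte marker list stood in the same order in CNO, at 4.09%, 2.88% and 1.19% of reads in CNO 1, 2 and 3. Its mean log2 level did too, at 12.7, 12.4 and 10.7. Not every marker in the list followed, as Aldh1l1 had 110, 271 and 1373 normalized counts. With the mean log2 level of the astrocyte marker list subtracted, Slc6a11 had 1.36, 0.66 and -0.79 in the CNO libraries. The values were -0.24, -0.15 and -0.57 for saline 3, 4 and 5, so CNO 3 remained the lowest and CNO 1 the highest. The part of astrocyte content in the spread of Slc6a11 was not tested.

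Of the 5 other transporter genes listed, 3 were tested and none passed. The taurine transporter gene Slc6a6 had 2967, 1039 and 5103 in CNO and 871, 1781 and 1767 in saline, with a log2 difference of 0.84 ± 0.66 (limma adjusted p = 0.661). Its highest library was CNO 3, where Slc6a11 was lowest. Per kb of exon, Slc6a6 averaged 359 ± 240.4 normalized counts in CNO and 174 ± 61.6 in saline, beside 1732 ± 1568 and 605 ± 223 for Slc6a11. Slc6a13, which encodes GAT2, was sparse, with 257 in CNO 3 and at most 25.7 in any other library. The betaine and GABA transporter gene Slc6a12 and the vesicular transporter gene Slc32a1 had reads in CNO 2 only, 48.8 and 54.8 normalized counts.

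The first step of GABA breakdown gave the smallest unadjusted p in the set. Abat encodes GABA transaminase, the mitochondrial enzyme that turns GABA into succinic semialdehyde, and lies on chromosome 16 at 8513429 to 8621568 on the plus strand. Its normalized counts were 3284, 2763 and 2545 in CNO 1, 2 and 3 and 1321, 885 and 837 in saline 3, 4 and 5. The lowest CNO library was 1.93 times the highest saline library, and the CNO libraries lay within 1.29 times of each other. All CNO libraries lay above all saline libraries for 4.57% of tested genes, and for 2 of these 7, Abat and Gabbr1.

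Abat averaged 2864 ± 380 in CNO and 1014 ± 267 in saline (n = 3 each), a ratio of 2.82. The log2 difference was 1.52 ± 0.52 (SE), with a 95% interval of 0.39 to 2.65, and did not pass over all genes (limma adjusted p = 0.488, unadjusted p = 0.0130). In RPM Abat had 199, 194 and 153 in CNO and 134, 92.1 and 87.3 in saline, still without overlap, where 1.13% of tested genes had all CNO libraries above all saline libraries. On that scale the log2 difference was 0.82 ± 0.51 (adjusted p = 0.438). With the astrocyte marker mean subtracted, Abat had -0.999, -0.94 and 0.57 in CNO, against -1.88, -1.98 and -1.74 in saline. The groups again did not overlap, as for 1.82% of tested genes in that direction. The log2 difference on this scale was 1.41 ± 0.85 (limma adjusted p = 0.736). The subtracted mean was 10.7 in CNO 3, against 12.7 and 12.4 in CNO 1 and 2. In normalized counts, Abat in CNO 3, where Slc6a11 was lowest, lay within 1 SD of the CNO mean. The summed oligodendrocyte markers also separated the groups, with CNO above saline throughout. Most of that sum was Mbp, at 1585698 of 1841017 in CNO 1. The mean log2 level of the oligodendrocyte list overlapped, at 10.36, 12.79 and 12.15 in CNO and 10.85, 10.83 and 12.09 in saline. The part of these markers in the Abat values was not tested.

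The gene of the second step overlapped between the groups. Aldh5a1 encodes succinic semialdehyde dehydrogenase, which makes succinate, and lies on chromosome 13 at 24907579 to 24937661 on the minus strand, where a lncRNA gene on the opposite strand overlaps it with a mean of 12.2 normalized counts. Aldh5a1 itself had 2303, 808 and 406 in CNO 1, 2 and 3 and 745, 876 and 669.9 in saline 3, 4 and 5. The CNO libraries surrounded the saline libraries, with CNO 1 the highest and CNO 3 the lowest of the 6.

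The log2 difference of Aldh5a1 was 0.26 ± 0.76 (limma adjusted p = 0.904, 95% interval -1.40 to 1.93), and it was -0.44 in RPM and -0.10 with quantile scaling. The ratio of Abat to Aldh5a1 within a library does not depend on the scale factor. Per exon length it was 1.04, 2.49 and 4.56 in CNO and 1.29, 0.736 and 0.911 in saline, so CNO 1 lay within the saline range (exact permutation p = 0.2, 2-sided, adjusted p = 0.3 over 3 ratios). The ratio of Abat to Slc6a11 was 0.127, 0.214 and 1.67 in CNO and 0.208, 0.183 and 0.289 in saline (exact permutation p = 0.8, adjusted p = 0.8). CNO 3 was the highest library in both ratios, and without it the log2 difference of the ratio of Abat to Slc6a11 turned from 0.68 to -0.43. The 3 ratios were chosen after the values were seen, and 3 libraries against 3 cannot give a p below 0.1.

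Among 10 genes of the GABA shunt and its glutamate and glutamine partners, 9 were tested, none passed, and 4 had a log2 difference above 0. Glul, the glutamine synthetase of astrocytes, had 28584, 21247 and 14122 in CNO and 19078, 15838 and 13942 in saline, with a log2 difference of 0.34 ± 0.33 (limma adjusted p = 0.701) that was -0.36 in RPM and -0.35 with quantile scaling. Adhfe1, which oxidizes gamma-hydroxybutyrate to succinic semialdehyde, had 1352, 576 and 35.9 in CNO and 1542, 938 and 909 in saline. Got2 had 761, 999.6 and 233 against 239, 112 and 324, and Got1 0, 563 and 62.1 against 375, 427 and 234. These are the mitochondrial and cytosolic aspartate aminotransferases, and both overlapped between groups. Glud1, glutamate dehydrogenase, was picked after its values were seen because it ordered the CNO libraries as Slc6a11 did, at 45209, 17886 and 3900.

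**Figure D2:**
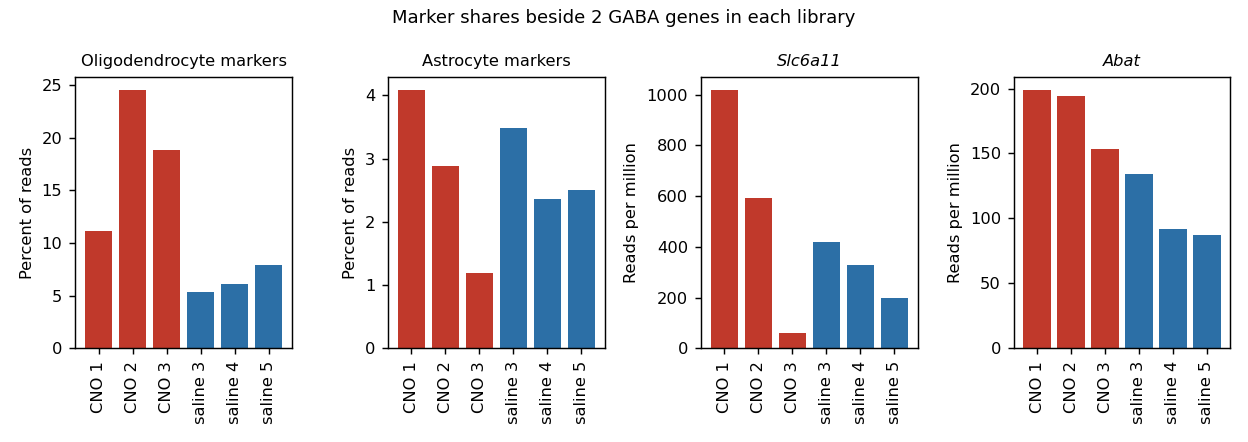
Percent of reads in the oligodendrocyte and astrocyte marker lists and RPM of Slc6a11 and Abat, 1 bar per library, with axes from 0. In CNO 3 the astrocyte list (1.19%) and Slc6a11 (59.8) are at their lowest, while Abat (153) stays above all saline libraries.

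Maob was the least abundant gene of the set and nearly missing from 1 library. It encodes monoamine oxidase B, an outer mitochondrial enzyme that deaminates amines and takes part in making GABA from putrescine, and lies on the X chromosome at 16709282 to 16817366 on the minus strand. Its normalized counts were 304, 279 and 1.94 in CNO 1, 2 and 3 and 531, 65.6 and 170 in saline 3, 4 and 5. CNO 3 held 2 reads (exact Poisson 95% interval 0.242 to 7.22 reads, or 0.235 to 7.01 normalized counts), against 72 in CNO 1 and 377 in CNO 2. The values of the other 2 CNO libraries lay inside the saline range.

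The log2 difference of Maob was -1.53 ± 1.94 (limma adjusted p = 0.765, 95% interval -5.78 to 2.71) and 0.68 without CNO 3, so its sign rested on that library. It was 0.04 with quantile scaling. Xist, the RNA of the inactive X chromosome, had 25.4, 21466 and 35033 normalized counts in the CNO libraries, against 216, 35117 and 885 for saline 3, 4 and 5. Ddx3y, a Y-linked gene, had 2417, 6.66 and 1.94 in CNO and 1452, 213 and 1955 in saline. Saline 4 thus held high Xist together with 266 reads of Ddx3y, and the labels do not give the sex of any library. Maob was low in CNO 3 and saline 4, which had the highest Xist levels, but not in CNO 2. The part of sex in the Maob values was not tested.

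The rest of the putrescine route was present and showed no call among 9 tested of 11 listed genes. Aldh9a1, the dehydrogenase that completes GABA from its aldehyde, had 2937, 689 and 599.5 in CNO and 574, 343 and 352 in saline. The log2 difference was 1.38 ± 0.81 (limma adjusted p = 0.592). All CNO libraries lay above all saline libraries, as for 4.57% of tested genes, but the lowest CNO value was only 1.045 times the highest saline value. CNO 3 held 618 of 17102657 reads and saline 3 held 1012 of 17389282, so the groups overlapped in RPM. Aldh2 overlapped between groups, at 4006, 1171 and 1796 against 1155, 735 and 1259 (0.99 ± 0.62, adjusted p = 0.604). Azin1, which protects ornithine decarboxylase from degradation, lay lower in each CNO library, at 968, 1117 and 646 against 1401, 2637 and 1460.0 (-0.98 ± 0.59, adjusted p = 0.596), as 12.5% of tested genes did. Sat2 had 0 reads in all CNO libraries and 1.70, 35.2 and 61.4 in saline, where the value of saline 3 rests on 3 reads.

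Genes that make GABA from glutamate were low in every library except Gad1 in CNO 2. Gad1 and Gad2, the glutamate decarboxylases of inhibitory neurons, had 0, 512 and 16.5 and 0, 4.44 and 4.85 in CNO, and 24.9, 0.800 and 0 and 46.5, 92.8 and 2.01 in saline. Of the 10 interneuron markers, 10, 4 and 6 were at 0 in CNO 1, 2 and 3 and 3 to 4 in each saline library, and the list took at most 0.00513% of reads. Of the 5 tested genes for synthesis and release none passed. Best1, an anion channel gene linked to GABA release from glia, had 0 reads in all CNO libraries and 35.7, 39.2 and 11.6 in saline. It thus lay lower in each CNO library, as 12.5% of tested genes did. The saline mean was 4.86 times a floor of 3 reads per library averaged over the CNO libraries. Saline 5 lay below what 3 reads are worth in CNO 1. Lrrc8a, a subunit of volume-regulated anion channels, overlapped between groups (0.15 ± 0.82, limma adjusted p = 0.954) and turned to -0.55 in RPM, -0.22 with quantile scaling and -0.30 in limma-voom.

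GABA-B receptors are obligate pairs, in which the Gabbr1 product binds GABA and the Gabbr2 product couples to G proteins. Gabbr1, on chromosome 17 at 37045966 to 37075067 on the plus strand, had normalized counts of 4408, 3477 and 4625 in CNO 1, 2 and 3 and 2002, 2291 and 1143 in saline 3, 4 and 5. Every CNO library lay above every saline library, the lowest CNO value being 1.52 times the highest saline value. The means were 4170 ± 609 and 1812 ± 597 (n = 3 each), a ratio of 2.30.

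The log2 difference of Gabbr1 was 1.25 ± 0.48 (SE, 95% interval 0.21 to 2.30), and it did not pass over all genes (limma adjusted p = 0.491, unadjusted p = 0.0229). In RPM Gabbr1 had 267, 244 and 279 in CNO and 203, 238 and 119 in saline, without overlap but with a narrow gap. On that scale 1.13% of tested genes had all CNO libraries above all saline libraries. The log2 difference of Gabbr1 in RPM was 0.55 ± 0.46 (adjusted p = 0.529). Relative to the astrocyte marker mean the groups touched, with CNO 2 and saline 4 both at -0.61. The deposited table counts genes, so the transcript forms of Gabbr1 are not separated.

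Gabbr2, on chromosome 4 at 46662305 to 46991873 on the minus strand, had 1171, 863 and 1036 in CNO and 1522, 649 and 442 in saline. The CNO values lay inside the saline range, and saline 3 was the highest of all 6. The log2 difference was 0.42 ± 0.69 (limma adjusted p = 0.820, 95% interval -1.10 to 1.93), and it was -0.28 in RPM.

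The ratio of the pair, chosen after the values were seen, did not overlap between the groups, in a design too small to pass 0.05. Per exon length there were 3.24, 3.47 and 3.84 Gabbr1 reads for each Gabbr2 read in CNO 1, 2 and 3 and 1.13, 3.04 and 2.23 in saline 3, 4 and 5. The means were 3.52 ± 0.303 and 2.13 ± 0.956, and the difference of log2 ratios was 0.83 (exact permutation p = 0.1, 2-sided, the smallest the design allows, adjusted p = 0.3 over 3 ratios). Gabbr1 exceeded Gabbr2 in all 6 libraries. The spread was wider in saline. Saline 4 lay close to the CNO libraries, and without saline 3 the log2 difference was 0.43.

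Of 17 GABA-B partners and effectors, 13 were tested and none passed, with 5 log2 differences above 0. Gnai2, a Gi subunit, had 9120, 2519 and 5171 in CNO and 2106, 2533 and 2631 in saline (1.03 ± 0.52, limma adjusted p = 0.550). Kctd12b, a paralog of the auxiliary subunit gene Kctd12, had 76.1, 171 and 789.7 against 622, 775 and 808 (-1.74 ± 0.996, adjusted p = 0.581). Kctd12 itself, picked after its values were seen, was the one abundant auxiliary subunit gene, at 14911 ± 2398 in CNO and 16171 ± 4085 in saline, while Kctd8 and Kctd16 had 0 reads in every library. Ajap1, a binding partner of the receptor, had 0, 0 and 10.7 against 18.1, 117 and 3.52. Ddit3, a transcription factor whose protein can bind the receptor, had 0 reads in all CNO libraries and 18.1, 9.61 and 71.5 in saline. Saline 4 lay below what 3 reads are worth in CNO 1, and 12.5% of tested genes were lower in each CNO library.

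In normalized counts Gabrg1 was the only one of the 7 with a mean difference below 0 apart from Maob. It encodes the gamma1 subunit of GABA-A receptors, which is typical of glia, and lies on chromosome 5 at 70751047 to 70842617 on the minus strand. Its normalized counts were 951, 1181 and 958 in CNO 1, 2 and 3 and 1325, 1096 and 1534 in saline 3, 4 and 5. CNO 2 lay above saline 4, so the groups overlapped.

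The log2 difference of Gabrg1 was -0.35 ± 0.57 (limma adjusted p = 0.818, 95% interval -1.60 to 0.90), and it lay below 0 in all alternatives tried. In RPM Gabrg1 had 57.6, 83.0 and 57.7 in CNO and 134, 114 and 160.03 in saline, and the groups no longer overlapped. That holds for 21.3% of tested genes in this direction on that scale, and the log2 difference was -1.05 ± 0.57 (adjusted p = 0.401).

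Of the 18 other GABA-A subunit genes, 8 were tested, none passed and 4 had 0 reads in all libraries. Per kb of exon, Gabrg1 averaged 131 ± 16.6 normalized counts in CNO and 168 ± 27.9 in saline. Gabrb2 averaged 45.8 ± 27.0 and 30.03 ± 30.4, and Gabrb1 23.4 ± 29.2 and 38.4 ± 18.6. In saline every library had more Gabrg1 per kb than any of the 8 others. Gabra4, picked after its values were seen, had 1411, 403 and 0 in CNO 1, 2 and 3 and 92.8 to 371 in saline. In CNO 1 Gabra4 stood above Gabrg1 per kb, at 232 against 121. Gabra2 had 4.23, 280 and 15.5 in CNO and 313, 65.6 and 143 in saline. Log2 differences were -1.40 ± 1.10 for Gabrb1, -2.32 ± 1.91 for Gabra2 and 0.83 ± 1.25 for Gabrb2 (limma adjusted p from 0.663 to 0.799). Gabra4 and Gabrb1 overlap at their starts on opposite strands, and how reads there were counted is not given in the sources used here.

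**Figure D3:**
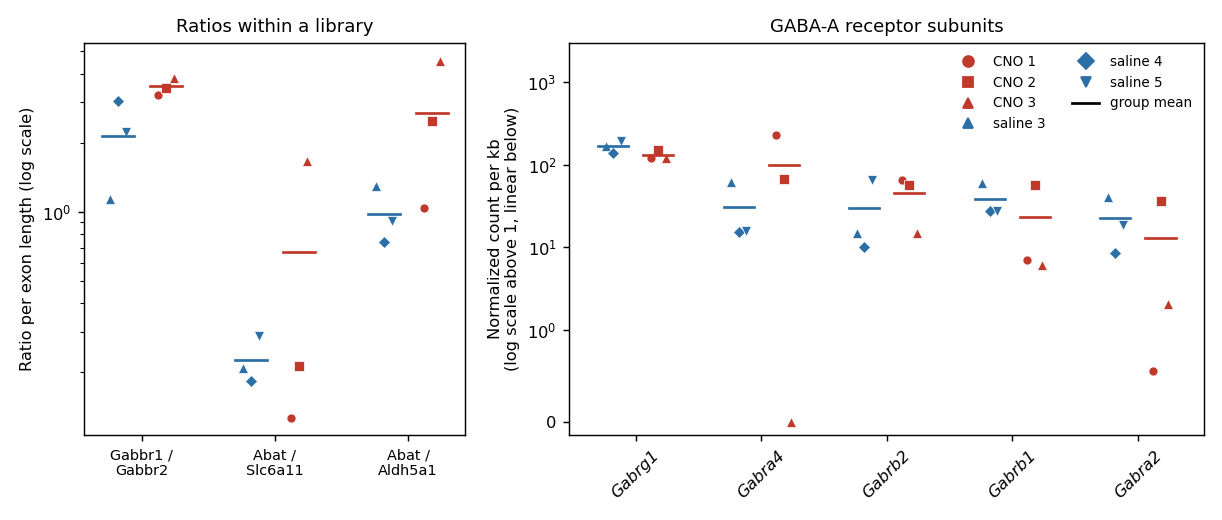
Left, ratios of normalized counts per exon length within each library (log axis). Right, normalized counts per kb of 5 GABA-A subunit genes (log axis above 1, linear below). Symbols are libraries and bars group means. The Gabbr1 to Gabbr2 ratio, chosen after the values were seen, separates the groups, at 3.24 to 3.84 in CNO and 1.13 to 3.04 in saline.

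Of 11 receptor partners and chloride cotransporters, all were tested and none passed, with 5 log2 differences above 0. Gphn, the gene of the scaffold protein gephyrin, had 2996, 782 and 3248 in CNO and 1209, 555 and 398 in saline (1.61 ± 0.74, limma adjusted p = 0.531). Gabarap and Gabarapl1, related genes of receptor trafficking and autophagy, had log2 differences of opposite sign, at 33.8, 2295 and 123 against 1171, 1035 and 1738 for Gabarap (-2.58 ± 1.29, adjusted p = 0.550). Gabarapl1 had 921, 158 and 586 against 41.9, 57.6 and 195 (2.48 ± 1.23, adjusted p = 0.550). Both overlapped between groups through CNO 2. Slc12a5, the chloride exporter of neurons, was lower in every CNO library, as were 12.5% of tested genes. It had 0, 13.3 and 0 against 22.7, 53.6 and 150.5 (-4.58 ± 2.02, adjusted p = 0.522). Of the 10 neuron markers, 5, 0 and 2 were at 0 in CNO 1, 2 and 3 and 0 to 1 in each saline library.

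Ordered by normalized count per kb, Slc6a11 led the set in 5 of 6 libraries and Gabbr1 in CNO 3. Saline means were 605 for Slc6a11, 233 for Gabbr1, 168 for Gabrg1, 135 for Aldh5a1, 131 for Abat, 130.3 for Gabbr2 and 91.7 for Maob. In saline, Slc6a11 and Gabbr1 did not overlap, whereas each later gene overlapped the next in the range of its 3 libraries. In CNO the means were 1732 for Slc6a11, 537 for Gabbr1, 369.6 for Abat, 208 for Aldh5a1, 153 for Gabbr2, 131 for Gabrg1 and 69.9 for Maob. There Gabbr1 stood above Abat, and Gabrg1 above Maob, without overlap. Abat was the fifth in saline and the third in CNO.

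Across the set, 5 of 7 log2 differences were above 0, beside 31.7% of all tested genes, and the median was 0.42 beside -0.89 for all tested genes. In RPM 3 of 7 were above 0, with a median of -0.28 beside -1.55 for all tested genes, and without CNO 1 also 3 of 7, with a median of -0.0069 beside -0.46. With quantile scaling the medians were 0.050 and -0.078. All 7 had a read in every library, as did 7395 of the 13028 tested genes. With only those genes the medians were 0.42 for the set and -0.088 for all, and in DESeq2 0.62 and 0.0044. Much of the distance to -0.89 thus depended on which genes it was set against and on the method. Relative to the median of -0.89, Abat stood at 2.41, Gabbr1 at 2.14, Slc6a11 at 1.73, Gabbr2 at 1.31, Aldh5a1 at 1.15, Gabrg1 at 0.54 and Maob at -0.64. These distances depended on the setting. For Abat and Gabbr1 they were 2.37 and 2.10 in RPM, 1.61 and 1.34 with only genes that no library lacked, 1.47 and 1.19 by edgeR and 1.05 and 0.70 with quantile scaling. For Gabrg1 they were -0.26, -0.36 and -0.71 in the last 3 of these. Abat and Gabbr1 kept a log2 difference above 0 in all 20 fits, from 0.82 to 1.72 and from 0.55 to 1.45, and never passed the threshold.

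**Figure D4:**
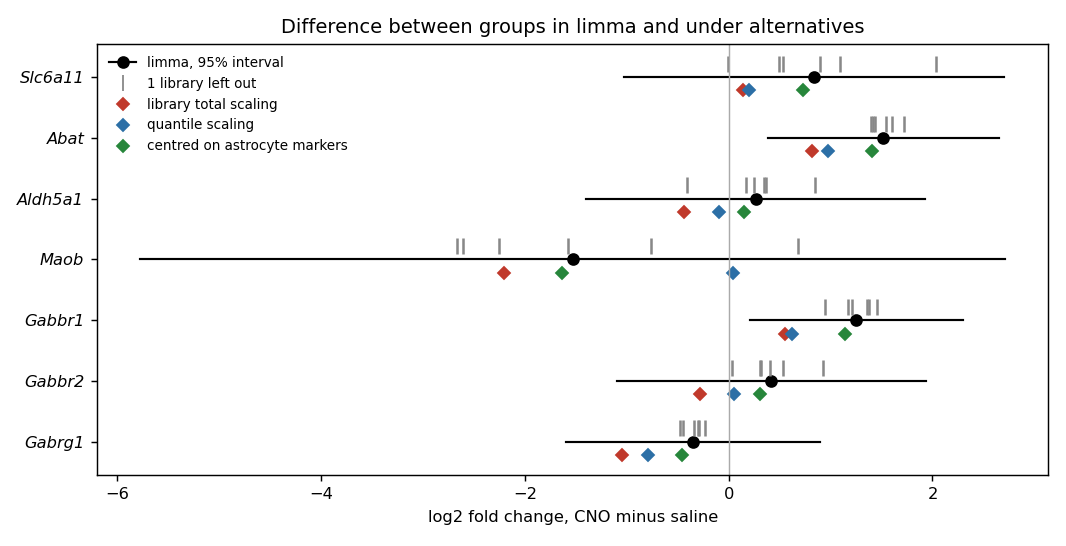
Log2 fold change of CNO minus saline for each gene, with the limma 95% interval, the value with each library left out (grey ticks) and 3 other scalings (diamonds). Abat (1.52) and Gabbr1 (1.25) stay above 0 throughout, while Slc6a11 runs from -0.01 to 2.03 and Maob from -2.67 to 0.68 as single libraries are left out.

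The members did not share 1 pattern over the libraries. The root mean square difference of centred log2 values was smallest for Abat and Gabbr1, at 0.35, and it was 0.75 for Slc6a11 and Aldh5a1 and 2.85 for Gabbr1 and Maob. Among 8340 genes with a mean of at least 100, the profiles nearest to Slc6a11 were Cnn3 and Dkk3 (0.20 and 0.21), and those nearest to Aldh5a1 were Rab2a and Ctdp1 (0.07 and 0.08). Commd10 and Ms4a6b lay nearest to Abat (0.15 and 0.17), and Kitl and Rab33b to Gabbr1 (both 0.19). Atxn2 and Cbs lay nearest to Gabbr2 (0.18 and 0.25), Tmed5 and Braf to Gabrg1 (0.11 and 0.13), and Rgs17 and Dcn to Maob (0.40 and 0.48). These distances are a description over 6 libraries in 2 groups that differ in depth and in marker shares.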

How the data were processed

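RNA of sorted cells was sequenced in 6 libraries. STAR 2.5.0a, DESeq2 1.20.0, Trimmomatic 0.4, MultiQC 0.9 and FastQC 0.10.1 were used on build mm10, per the submitters' processing notes. What counted the reads, with which annotation and strand setting, is not given in the sources used here. The deposited values are a signal, gene read counts that the authors scaled with a size factor for each library. Of all values 100% were whole multiples of the worth of a read in their library, within 1e-06 reads, so reads were recovered, and 0 columns lacked a sample. limma 3.58.1 (R 4.3.3, variance trend) tested log2(normalized count + 1) in 13028 genes with a mean of at least 10, with Benjamini-Hochberg adjustment at 0.05, 2-sided. The fit was tested on simulated data. Alternatives were pseudocounts of 0.5 and 8, other filters and scalings, each library left out, and edgeR 4.0.16, DESeq2 1.42.0 and limma-voom on recovered reads. Levels per kb use the exon union of GENCODE M21. Sequences come from a set of RefSeq starts, which held no entry for Abat and Maob.

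Members and lists were chosen with earlier results of these data known. Besides the members, up to 4 genes with the smallest p were named per list, and 2 profile neighbours per member, leaving out predicted gene models. Some genes that meet this rule are not reported here. Genes named outside this rule are said to be so or only illustrate a list. Groups and replicate numbers come from the labels.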

Additional observations from a re-analysis of the deposited data

How the results depend on the processing

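No member passed in any of 18 alternatives, nor in a fit limited to genes read in all libraries, which was added after the data were seen. Against 2 calls over all genes, both higher in CNO, limma gave 0 with a mean filter of 50, library total scaling, quantile scaling, centring on astrocyte markers, no variance trend or the limited gene set, and so did edgeR. limma-voom gave 16, all higher, and DESeq2 249, of which 69 were higher and 180 lower. With single libraries left out the count ran from 0 to 2, with 2 only without CNO 1. No paired analysis was made because the labels name no pairing between the groups. 

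Among members, 125 of 133 alternative log2 differences kept their direction and side of the threshold. Aldh5a1 turned to -0.44 with library total scaling, -0.10 with quantile scaling and -0.17 in limma-voom, Gabbr2 to -0.28 with library total scaling and Maob to 0.041 with quantile scaling. With single libraries left out, Slc6a11 ran from -0.0069 to 2.03, Aldh5a1 from -0.41 to 0.84 and Maob from -2.67 to 0.68. Among other named genes, Lrrc8a turned to -0.55, -0.22 and -0.30 with library total scaling, quantile scaling and limma-voom, Glul to -0.36 and -0.35 and Glud1 to -0.17 and -0.30 with the first 2. Gabra4 turned to 0.080 with a pseudocount of 8, 0.38 with quantile scaling, 1.48 in edgeR and 1.70 in DESeq2. The same ranges were -0.61 to 0.94 for Lrrc8a, -0.28 to 1.49 for Glud1, -2.90 to 2.33 for Gabra4 and -0.33 to 0.025 for Kctd12. With each library left out, also added after the data were seen, the log2 ratio of Abat to Slc6a11 reached -0.43 without CNO 3, and the other 2 ratios kept their direction. The cause of these changes was not tested. Depth limits low genes most in CNO 1. CNO 2 and CNO 3 also had fewer genes with a read than any saline library, at 12820 and 10883.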
